A study of Mus musculus with 9 samples.

Results

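Kinesins are the motor proteins that walk along microtubules, and their genes were followed here in the prefrontal cortex of mice. The members were all rows of the deposited expression table whose symbol begins with Kif followed by a digit or the letter c, which gave 35 of 14444 genes. Of these, 34 encode motors; Kif1bp encodes a kinesin-binding protein without a motor domain and was kept because the symbol rule takes it. Of 43 protein-coding mouse genes in GENCODE M21 whose symbols match the rule, 8 (Kif12, Kif14, Kif18b, Kif20b, Kif28, Kif2b, Kif2c and Kifc1) were not in the table and were not analysed here.

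Total RNA depleted of ribosomal RNA was sequenced from cortex of animals between postnatal weeks 5 and 8, in 9 libraries of 3 groups. One group of 3 libraries came from Shank3 mutant mice injected intraperitoneally with UNC0642 at 1 mg/kg once a day for 3 days, the next 3 from Shank3 mutant mice given saline, and the last 3 from wild-type mice given saline. Shank3 encodes a scaffold of the excitatory postsynapse, the labels do not name the mutant allele, and UNC0642 inhibits the histone H3 lysine 9 methyltransferases EHMT1 and EHMT2. The labels do not state that each library is a separate animal, and the p-values given here therefore describe library-to-library spread, part of which may be technical.

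Neurons depend on kinesins because most of their proteins are made in the cell body and used in axons and dendrites far away. Motors with the motor domain at the amino terminus mostly walk toward microtubule plus ends, which point outward in axons, whereas the carboxy-terminal motors of the kinesin-14 family walk toward minus ends. Other family members do not carry cargo through neurites: some build the mitotic spindle and are made by dividing cells, some work in cilia, and the kinesin-13 motors take microtubules apart at their ends.

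The values carry 2 features that bear on every kinesin result. The deposited values had been adjusted so that, for each gene, the mean log2 value over 5 libraries (UNC0642 replicates 2 and 3 and all of wild type) was the same as over the other 4 (UNC0642 replicate 1 and all saline mutants), with differences of at most 2.5e-09; this ties each group difference in them to how the UNC0642 libraries lie. Whole reads from before that adjustment were recovered for 14444 of 14444 genes and came to between 12035098 and 16165483 per library. In these recovered reads the first principal component took 51.7% of the variance and set the 3 wild-type libraries and UNC0642 replicate 3 on one side, and UNC0642 replicates 1 and 2 with the 3 saline mutant libraries on the other. No label names what this division is, and it separates saline mutants from wild type completely. The mutated gene itself gave no check of the genotype: Shank3 had 3594, 4819 and 4830 reads under UNC0642, 4230, 5307 and 4601 in saline mutants and 3552, 4095 and 4443 in wild type. All 10 neuronal markers looked for were measured, which the tissue label calls for. Unless stated otherwise, levels below are in RPM, which are recovered reads scaled by library sizes from median-of-ratios factors and not by each library's total. Replicates 1, 2 and 3 are given in that order.

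Kinesin motor transcripts made up about 1 in every 100 reads. Their share of all recovered reads was 0.992, 1.04 and 1.09% under UNC0642, 0.973, 1.07 and 1.06% in saline mutants, and 1.11, 1.15 and 1.22% in wild type, so that each of the 3 wild-type libraries lay above each of the 6 mutant libraries. The 17 genes of the transport class held 98.6% of motor reads on average. The 8 mitotic genes held 0.235% (range 0.191 to 0.281% over 9 libraries), and the 6 genes of motile or signalling cilia held 0.161% (0.143 to 0.204%). Because cortex is a mixture, fewer cells of a type and less RNA per cell cannot be told apart in any of these levels.

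The kinesin-1 heavy chains, which with light chains carry vesicles, mitochondria and RNA granules along axons and dendrites, held 54.3% of motor reads (range 50.4 to 57%). Most of that came from one gene. Kif5a, a neuronal heavy chain, had 4070, 4498 and 4194 RPM under UNC0642, 3695, 4532 and 4537 in saline mutants, and 4561, 4889 and 5225 in wild type. On the RPM scale, every wild-type library was above every other library for Kif5a. Kif5a alone was 41.5% of motor reads on average. Kif5c, the other neuronal heavy chain, had 1030, 1021 and 1198 RPM under UNC0642, 1012, 960 and 1092 in saline mutants and 1200, 1232 and 1201 in wild type. UNC0642 replicate 3 was thus at the wild-type level of Kif5c while the other 5 mutant libraries were below it. Kif5b, the heavy chain found in most cell types, was the scarcest of the family.

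Per kilobase of exon, the scale on which genes can be ranked, Kif5a led at 639 RPM per kilobase, averaged over the 9 libraries. Next came Kifc2, a kinesin-14 motor known from neurons, at 191.1, Kif1a, which carries synaptic vesicle precursors, at 173.2, and Kif5c at 154.7. Over all libraries Kifc2 and Kif1a could not be ordered, Kifc2 being the higher in 5 of 9, but their order differed by group. Kifc2 and Kif1a averaged 188.4 and 164.2 under UNC0642, 214 and 167.5 in saline mutants, and 170.9 and 187.9 in wild type. The next places on this scale went to Kif3a at 64.4, Kif1b at 56.6, Kif3c at 48.4 and Kif21a at 40.2. Below them Kif5b at 34.3 and Kif1bp at 33 could not be ordered, nor could Kifc3 at 12.5, Kif2a at 12.2 and Kif21b at 12.2. The order within each of these sets rests on log2 differences smaller than 1 SD over the 9 libraries, while Kif5a stood above Kifc2 in all 9 by 1.74 ± 0.27 log2 units (SD, n = 9). These SDs include differences between groups. Kif5b and Kif1bp averaged 30.1 and 34.3 in saline mutants, but 39.4 and 29.9 in wild type.

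**Figure D1:**
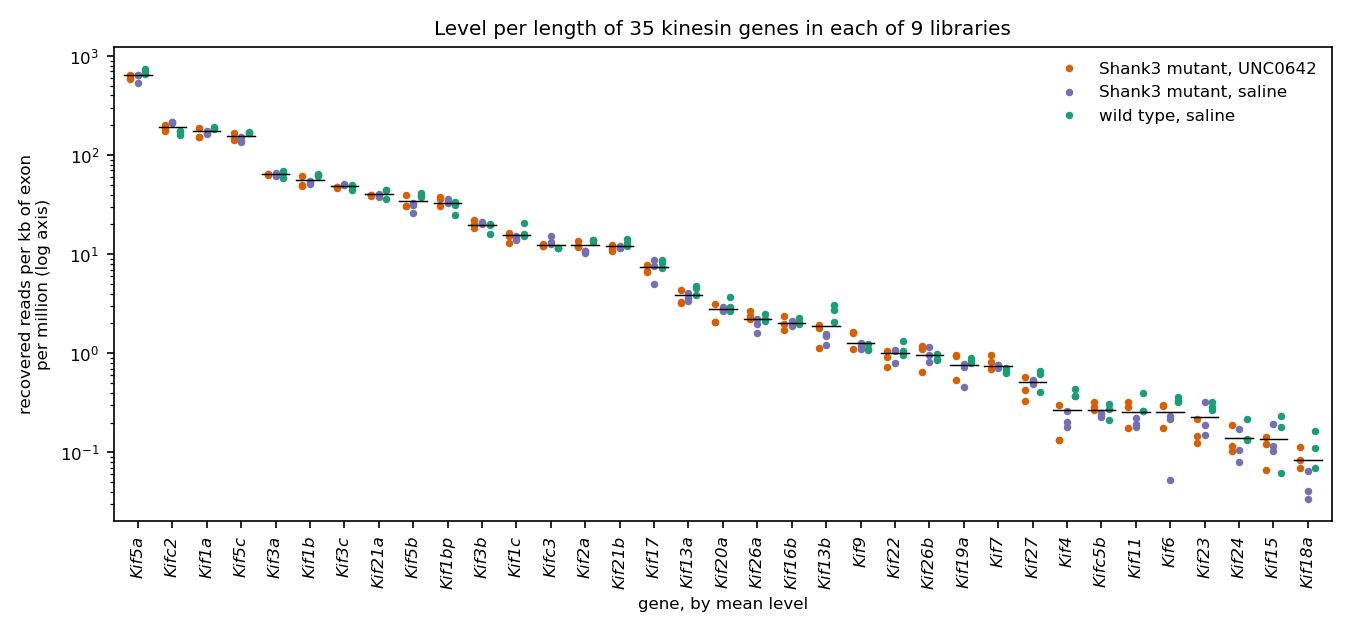
RPM of recovered reads per kilobase of exon (log axis) for each of the 35 kinesin genes, ordered by the mean over 9 libraries (horizontal line). Each point is a library, coloured by group. Levels run from 639 for Kif5a to 0.083 for Kif18a.

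Among kinesin-3 motors, which mostly work as fast carriers of vesicles, Kif1a and Kif1b dominated. Kif1a had 1428, 1408 and 1761 RPM under UNC0642, 1544, 1627 and 1517 in saline mutants and 1808, 1700 and 1752 in wild type. Kif1b, whose products carry mitochondria and synaptic vesicle precursors, had 859, 875 and 1089 under UNC0642, 909, 971 and 938 in saline mutants and 1131, 1095 and 1104 in wild type. In both genes UNC0642 replicate 3 lay with or near the wild-type libraries and every other mutant library lay below them. The remaining members were scarce: Kif1c, a carrier of dense-core and Golgi-derived vesicles, averaged 15.6 RPM per kilobase, the endosomal motors Kif13a and Kif16b 3.91 and 2.04, and Kif13b 1.90.

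Among the kinesin-2 genes, Kif3a, which pairs with the product of Kif3b to carry vesicles and to build cilia, had 233, 228 and 232 RPM under UNC0642, 237, 228 and 221 in saline mutants and 237, 250 and 212 in wild type. Kif3c, a neuronal partner of Kif3a, had 350, 355 and 342 under UNC0642, 370, 373 and 374 in saline mutants and 371, 363 and 328 in wild type. Neither gene separated the mutant groups from wild type. A stretch of 43.3% of the exon length of Kif3c is also covered by genes on the other strand (GENCODE M21), and whether counting used strand is not given in the sources used here. Kif3b had 123, 114 and 103 RPM under UNC0642, 119.9, 113.5 and 116.9 in saline mutants and 109.9, 113.2 and 90.5 in wild type, whose replicate 3 was the lowest library for Kif3a, Kif3b and Kif3c alike. For Kif3b, every saline mutant library was above every wild-type library, the nearest by 113.5 against 113.2 RPM. Kif17, a dendritic motor that carries NMDA receptor subunits, had 35.3, 31.1 and 29.97 RPM under UNC0642, 40.3, 22.9 and 35.2 in saline mutants and 39.6, 37.4 and 33.1 in wild type. The saline mutants held both the highest and the lowest library for Kif17.

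Of the kinesin-4 genes, Kif21a and Kif21b restrain microtubule growth in axons and dendrites. Kif21a had 257, 252 and 257 RPM under UNC0642, 256, 244 and 263 in saline mutants and 290, 289 and 236 in wild type, where replicate 3 was below every mutant library. Kif21b had 139, 132 and 152 under UNC0642, 140, 149 and 140 in saline mutants and 149, 157 and 175 in wild type, and the groups overlapped. Kif4 is a chromosome-binding kinesin-4 of dividing cells and is given with the mitotic genes.

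Mitotic kinesins sat near the bottom of the order. Kif20a, needed for cytokinesis, was the most abundant of them at 2.77 RPM per kilobase, but 29.3% of its exon length overlaps Cdc23 on the other strand. Kif22, a chromosome-arm motor, averaged 1.00. The others ranged between 0.265 for Kif4 and 0.083 for Kif18a, which aligns chromosomes, and included Kif11, whose product pushes spindle poles apart, and Kif23, a component of the central spindle. Kif18a was counted at 5 to 19 reads and Kif11 at 18 to 39 reads per library, and counting error alone comes to 33.3% of a library's value for Kif18a and 20.3% for Kif11. Kif20a had 8.91, 8.90 and 13.5 RPM under UNC0642, 11.9, 12.7 and 11.6 in saline mutants and 11.6, 12.8 and 16.2 in wild type. Kif23 had 0.981, 1.167 and 1.70 RPM under UNC0642, 2.56, 1.19 and 1.48 in saline mutants and 2.55, 2.27 and 2.12 in wild type. For both genes UNC0642 replicates 1 and 2 were the lowest libraries of all. Kifc5b is a near-identical copy of Kifc1, and its 10 to 18 reads per library are uncertain for that reason.

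Kinesins of cilia were as scarce; in brain motile cilia belong to the ependyma, while neurons and glia bear primary cilia. Kif9, a motor of motile cilia and flagella, led them with 61 to 116 reads per library and had 6.95, 7.12 and 4.72 RPM under UNC0642, 5.12, 4.75 and 5.42 in saline mutants and 5.35, 4.61 and 4.78 in wild type. Kif7, the cilium-tip regulator of Hedgehog signalling, had 3.19, 4.36 and 3.74 RPM under UNC0642, 3.52, 3.23 and 3.45 in saline mutants and 2.89, 3.25 and 3.06 in wild type, with overlap between all groups; genes on the other strand cover 20.3% of its exon length. Kif19a, which trims microtubules at cilia tips, and Kif27, a relative of Kif7, were counted at 23 to 62 and 21 to 49 reads per library. Kif6 and Kif24 had fewer than 30 reads in every library, as did Kifc5b and Kif18a among the genes above. The atypical kinesins Kif26a and Kif26b, which lack motor activity, were counted at 138 to 282 and 150 to 267 reads and averaged 2.20 and 0.955 RPM per kilobase.

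The kinesin promoters were searched for 4 sequence elements, and 4 promoters are shown as examples: Kif11 and Kif23 of the mitotic class, Kif5c of the transport class and Kif2a, a kinesin-13 outside both. They run 250 bases before to 50 bases after the start site, 5′ to 3′ on the gene's strand, and come from RefSeq on GRCm38.p6, where 26 of the 35 members had an entry. Capitals mark, in the mitotic genes Kif11 (chr19:37376132-37376431, plus strand) and Kif23 (chr9:61946750-61947049, minus strand), the letters of the cell cycle homology region and of the CCAAT box. These are elements through which cell cycle genes are regulated. In Kif5c (chr2:49619036-49619335, plus strand) and Kif2a (chr13:107022306-107022605, minus strand) they mark the GC box, which is bound by Sp1-type factors.
Kif11: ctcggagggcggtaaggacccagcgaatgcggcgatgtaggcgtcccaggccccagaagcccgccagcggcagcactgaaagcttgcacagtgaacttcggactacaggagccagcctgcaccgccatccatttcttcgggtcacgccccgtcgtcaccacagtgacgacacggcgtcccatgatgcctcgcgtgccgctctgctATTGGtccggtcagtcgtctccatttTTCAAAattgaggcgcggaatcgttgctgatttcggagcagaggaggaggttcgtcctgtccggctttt
Kif23: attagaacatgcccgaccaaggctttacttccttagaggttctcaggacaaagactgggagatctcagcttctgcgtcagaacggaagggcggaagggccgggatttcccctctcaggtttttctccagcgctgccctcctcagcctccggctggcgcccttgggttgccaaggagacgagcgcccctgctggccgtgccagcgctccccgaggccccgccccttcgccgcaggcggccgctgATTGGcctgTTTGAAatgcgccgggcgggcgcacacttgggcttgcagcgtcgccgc
Kif5c: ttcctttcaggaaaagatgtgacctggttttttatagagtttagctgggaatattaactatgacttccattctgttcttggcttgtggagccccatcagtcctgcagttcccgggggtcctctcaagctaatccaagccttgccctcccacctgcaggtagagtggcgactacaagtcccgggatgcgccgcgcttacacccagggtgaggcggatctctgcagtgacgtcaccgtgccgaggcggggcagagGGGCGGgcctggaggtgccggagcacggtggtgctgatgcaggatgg
Kif2a: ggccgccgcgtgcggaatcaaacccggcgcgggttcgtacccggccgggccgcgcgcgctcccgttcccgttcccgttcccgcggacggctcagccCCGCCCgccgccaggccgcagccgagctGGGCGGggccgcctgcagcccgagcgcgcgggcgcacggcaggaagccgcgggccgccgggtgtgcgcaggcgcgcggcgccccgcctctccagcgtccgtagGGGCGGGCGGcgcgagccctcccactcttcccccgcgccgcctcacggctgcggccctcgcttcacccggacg

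The cell cycle homology letters, TTTGAA or TTTAAA on either strand, occurred in the promoters of 6 of 7 mitotic kinesins, 1 of 11 transport kinesins and 1 of 5 cilia kinesins. Across promoters of the same length, 18.9% of 14012 belonging to genes of the expression table and 27.6% of all 32851 in the RefSeq table held them. CCAAT on either strand occurred in 5 of 7 mitotic, 3 of 11 transport and 3 of 5 cilia kinesins, beside 37.1% of promoters of table genes. The GC box letters GGGCGG, again on either strand, occurred in 9 of 11 transport, 4 of 7 mitotic and 3 of 5 cilia kinesins, beside 60.6%. The TATA box letters TATAAA on either strand occurred in 1 of 11 transport kinesins (Kif5c, where they are not in capitals), 0 of 7 mitotic and 2 of 5 cilia kinesins, beside 7.29%. The shown Kif2a promoter held 4 GC boxes, the last 2 overlapping each other, in a window of 81.7% G and C, and the shown Kif5c promoter held 1 in a window of 58%. These are letter matches and not binding sites.

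The first comparison, of mutants given saline against wild type, asks what the Shank3 mutation does to these transcripts. In recovered reads, 3 kinesin genes fell and 1 rose in saline mutants: Kif2a, Kif5b and Kif13b were lower and Kifc2 was higher (limma voom with Benjamini-Hochberg adjustment over 14444 genes, adjusted p under 0.05, two-sided). These 4 of 35 stand beside 12.4% of all genes called in that comparison, the 3 lower beside 6.9% of genes and the 1 higher beside 5.54%, so that the share of kinesins called was near that of the transcriptome. With the division of the libraries as a further term none of the 35 was called, and the same fit called none of the 14444 genes, with 4.92% at an unadjusted p under 0.05. That term could be estimated from the UNC0642 libraries alone, since saline mutants and wild type lie on opposite sides of it, and genotype and division cannot be told apart between those groups.

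Kif2a, a kinesin-13 that takes microtubules apart and limits axon branch growth, had 68.5, 69.1 and 65.9 RPM in saline mutants, against 88.6, 85.4 and 88.1 in wild type. The groups were far apart relative to their spread, at 67.8 ± 1.71 in saline mutants and 87.4 ± 1.76 in wild type (SD, n = 3 each). In the voom fit the log2 difference was -0.37 (SE 0.08, adjusted p = 0.0205), and -0.18 once the division entered as a term (adjusted p = 0.993). Dimt1 overlaps 19.2% of the exon length of Kif2a on the other strand and differed by -0.22 on the log2 scale without passing the test (adjusted p = 0.256).

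Kif13b, a kinesin-3 motor that carries the scaffold DLG1 and phosphoinositide-rich vesicles, had 15.9, 20.5 and 19.7 RPM in saline mutants and 26.9, 40.4 and 35.2 in wild type. It showed the largest difference of the 4 called genes, and its wild-type libraries were also the most scattered, at 34.2 ± 6.81 against 18.7 ± 2.45 in saline mutants (SD, n = 3 each). The log2 difference was -0.85 (SE 0.19, adjusted p = 0.0213) and, adding the division, -0.45 (adjusted p = 0.993).

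Kif5b had 210, 262 and 248 RPM in saline mutants and 298, 312 and 332 in wild type, without overlap. Its log2 difference of -0.39 (SE 0.11, adjusted p = 0.0354) shrank to -0.03 once the division was added (adjusted p = 0.999). Its neuronal relatives leaned the same way without passing the test: Kif5c differed by -0.25 (adjusted p = 0.0611) and Kif5a by -0.21 (adjusted p = 0.143).

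Kifc2 moved the other way. It had 849, 853 and 822 RPM in saline mutants and 694, 628 and 694 in wild type, a log2 difference of 0.33 (SE 0.08, adjusted p = 0.0232). Adding the division gave 0.17 (adjusted p = 0.993). Kifc3, the other measured minus-end motor of the kinesin-14 family besides Kifc5b, had 81.6, 69.9 and 67.8 in saline mutants and 61.2, 61.2 and 60.7 in wild type, again with no overlap, but its log2 difference of 0.25 did not pass (adjusted p = 0.0678). Genes on the other strand cover 27.5% of the exon length of Kifc3 and 4.1% of that of Kifc2.

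**Figure D2:**
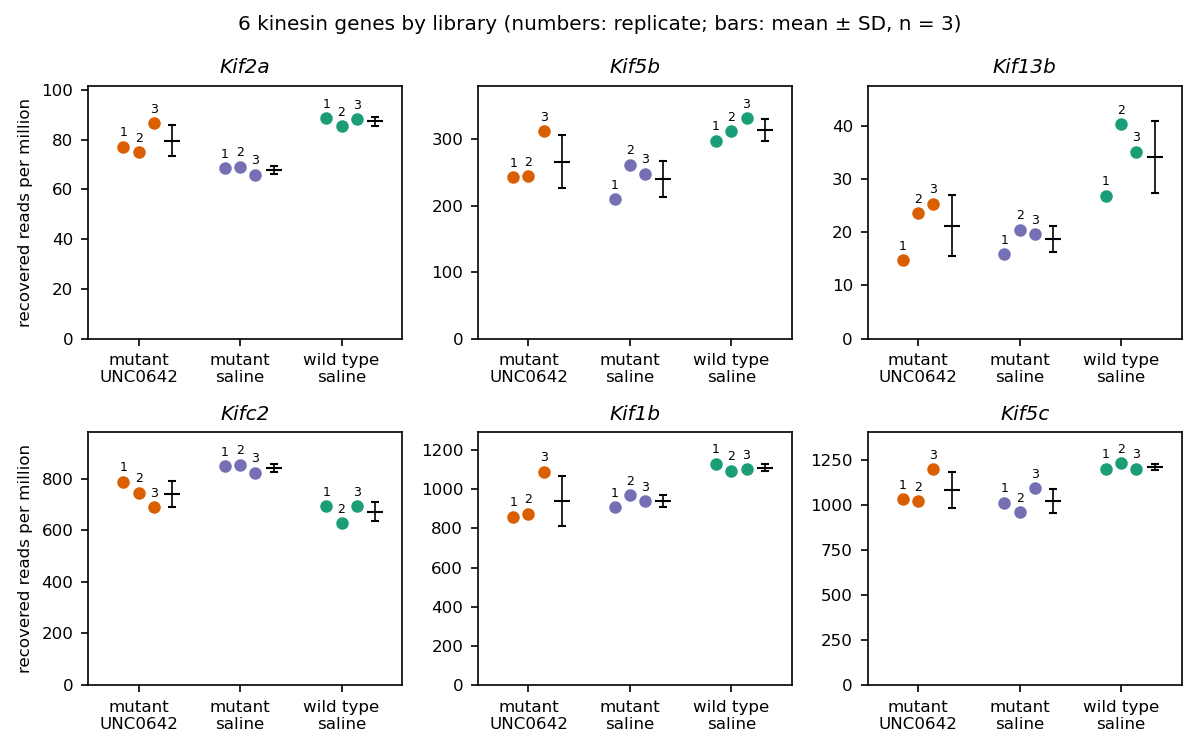
RPM of recovered reads, with the axis from 0, for the 4 kinesin genes called between saline mutants and wild type (Kif2a, Kif5b, Kif13b, Kifc2) and for Kif1b and Kif5c. Points are libraries numbered by replicate and bars are mean ± SD (n = 3). Saline mutants and wild type do not overlap in any of the 6 genes, and UNC0642 replicate 3 lies among or next to the wild-type libraries in 5 of them. In Kif13b it lies between the groups at 25.4 RPM, with 26.9 in the lowest wild-type library and 20.5 in the highest saline mutant library.

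Across the family the lean was toward lower levels in saline mutants. The log2 difference was negative for 27 of 35 kinesins with a median of -0.18, beside a median of -0.00 over all genes, of which 49.7% were positive. Saline mutants lay wholly below wild type for 13 kinesins (beside 20.2% of all genes) and wholly above for Kifc2, Kifc3 and Kif3b (beside 20.3%). The kinesin median was -0.18 as well when libraries were scaled by their totals alone, but 0.01 with the division as a term. By family or class, 3 of 3 kinesin-1, 6 of 6 kinesin-3 and 8 of 8 mitotic genes had negative differences, whereas kinesin-2 was split at 2 and 2 and kinesin-14 had 2 positive of 3. Several mitotic signs rest on few reads per library, such as 10 to 18 for Kifc5b and 8 to 33 for Kif15. Outside these sets, Kif7, Kif9 and Kif26b averaged higher in saline mutants than in wild type (3.40 against 3.06, 5.10 against 4.91 and 14.4 against 13.3 RPM).

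**Figure D3:**
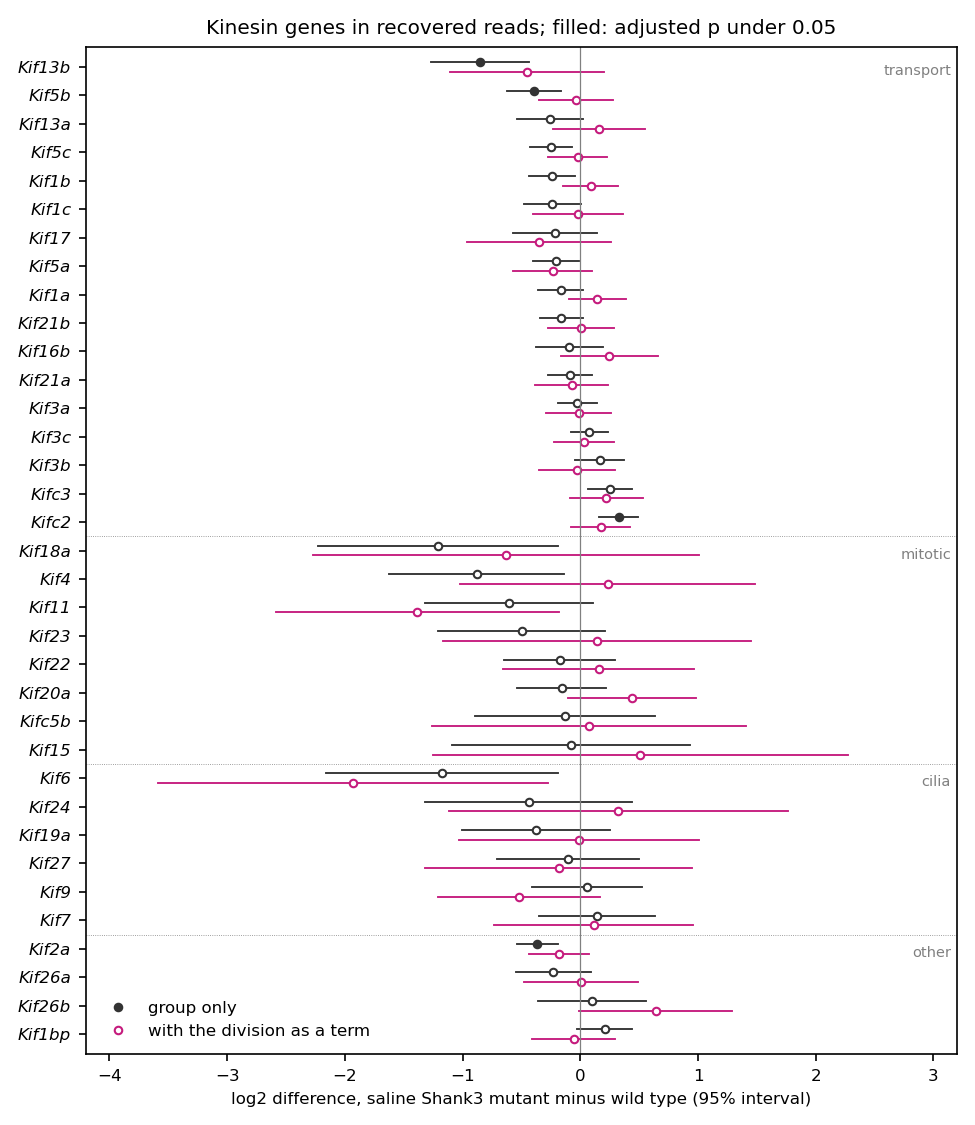
Log2 difference in recovered reads, saline Shank3 mutant minus wild type, with 95% intervals for the 35 kinesin genes by class. Black points are from the fit with the group only and pink points from the fit with the division of the libraries as a further term; filled points have an adjusted p under 0.05. The 4 filled points (Kif13b, Kif5b, Kifc2, Kif2a) are all black, and the intervals of the scarce mitotic and cilia genes are the widest.

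The calls leaned on single libraries. Leaving out saline mutant replicate 1 or 3, or wild-type replicate 2, left 0 kinesins called, and leaving out saline mutant replicate 2 or wild-type replicate 3 left 1. Calls over all 14444 genes moved as well, from 1797 in the main fit to 14 without wild-type replicate 2, so this dependence was not particular to kinesins. UNC0642 replicate 3 is in neither group compared and enters through the scaling of libraries and the shared estimate of spread. Leaving it out raised the calls to 7, beside 24.8% of all genes. Of these, 5 were lower (beside 13.1% of genes) and 2 higher (beside 11.7%). Kif1b, Kif5c and Kifc3 joined the 4, with log2 differences of -0.24, -0.25 and 0.25 (limma voom, adjusted p = 0.0118, 0.0144 and 0.0356). The 4 called genes kept their signs in these fits. The log2 difference ran from -0.38 to -0.34 for Kif2a, from -1.01 to -0.72 for Kif13b, from -0.46 to -0.30 for Kif5b and from 0.28 to 0.35 for Kifc2.

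The mitotic and cilia genes gave no call in this comparison. Kif4 had 1.44, 1.122 and 0.986 RPM in saline mutants and 2.04, 2.42 and 2.04 in wild type, a log2 difference of -0.88 from 9 to 32 reads per library over all groups (adjusted p = 0.101). Pdzd11 overlaps 15.1% of the exon length of Kif4 on the other strand; it averaged 30.02 RPM in saline mutants and 22.6 in wild type, well above Kif4. Kif6, a motor of motile cilia, had 0.320, 1.32 and 1.41 in saline mutants and 1.95, 1.96 and 2.19 in wild type, where saline mutant replicate 1 held 4 reads (log2 difference -1.18, adjusted p = 0.0985). Kif18a had 0.400, 0.330 and 0.634 in saline mutants against 1.61, 0.680 and 1.097 in wild type (log2 difference -1.21, adjusted p = 0.0995). In all 3 genes each wild-type library was above each saline mutant library.

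The second comparison, of treated against saline mutants, asks whether the inhibitor shifts kinesin transcripts in the mutant. No kinesin passed the test: 0 of 35 were called in recovered reads by limma voom, beside 0% of all genes, and 3 of 35 had an unadjusted p under 0.05, beside 3.69% of all genes. The deposited values also gave 0 calls, with 1 kinesin at an unadjusted p under 0.05, beside 1.95%. The median kinesin log2 difference was 0.01 in recovered reads, with 20 of 35 positive. For the 14 kinesins of at least 1000 reads on average, every 95% interval lay between -0.35 and 0.40 on the log2 scale. For the 22 of at least 100 reads the limits were -0.62 and 0.63. These intervals are per gene, without adjustment, and concern a mean over treated libraries that lay on both sides of the division.

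The 3 kinesins of smallest p are described because of that rank. Kif2a had 77.2, 74.9 and 86.5 RPM under UNC0642 and 68.5, 69.1 and 65.9 in saline mutants, a log2 difference of 0.23 (SE 0.08, unadjusted p = 0.0141, adjusted p = 0.973 by limma voom). Kifc2 had 789, 745 and 689 under UNC0642 and 849, 853 and 822 in saline mutants, a log2 difference of -0.19 (SE 0.08, adjusted p = 0.973). In both genes the groups did not overlap, as was the case for 3 kinesins with treated mutants above (Kif2a, Kif18a and Kifc5b, beside 4.67% of genes) and 3 with treated mutants below (Kifc2, Kifc3 and Kif3c, beside 5.14%). Kif26a, an atypical kinesin without motor activity that restrains growth factor signalling in enteric neurons, had 16.4, 15.2 and 18.5 under UNC0642 and 11.03, 15.2 and 13.7 in saline mutants, a log2 difference of 0.32 (SE 0.14, adjusted p = 0.973), and here 1 library of each group was at the same level.

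UNC0642 replicate 3 stood apart from the other treated libraries in many kinesins. Among the 16 kinesins whose saline mutant and wild-type libraries did not overlap, replicate 3 was nearer the wild-type mean in 13, whereas replicates 1 and 2 were each nearer the saline mutant mean in 11. Over all 5863 genes without overlap, 78.3% placed replicate 3 nearer wild type, 14.9% did so for replicate 1 and 16.8% for replicate 2. Kif5b shows the pattern at 243 and 245 RPM in UNC0642 replicates 1 and 2 and 312 in replicate 3. When the comparison was kept to the 5 mutant libraries on the same side of the division, 0 kinesins were called, and 5.89% of all genes had an unadjusted p under 0.05. The smallest p there belonged to Kif1a (log2 difference -0.14, SE 0.04, adjusted p = 0.778).

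**Figure D4:**
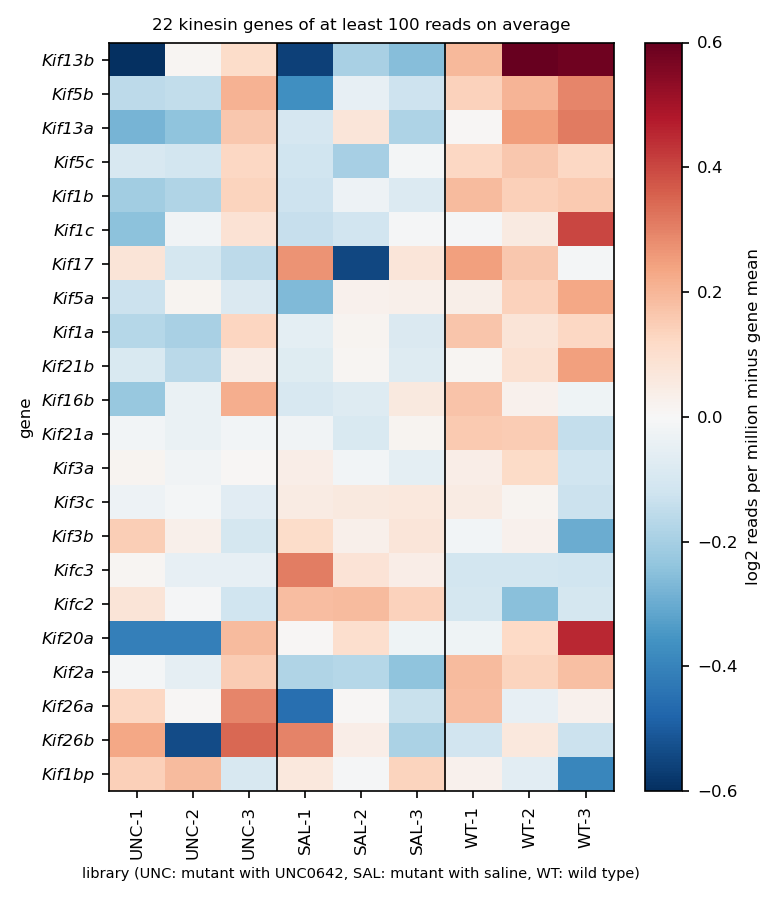
Log2 RPM of recovered reads minus the gene's mean over 9 libraries, for the 22 kinesins of at least 100 reads on average (rows) in each library (columns, UNC0642 mutants, saline mutants and wild type). Red is above and blue below the gene's mean. Column UNC-3 is red for Kif5b, Kif5c, Kif1b, Kif1a and Kif2a, as the wild-type columns are, while UNC-1 and UNC-2 are blue for the first 4 of these.

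UNC0642-treated mutants were also set against wild type, a comparison that shares its wild-type libraries with the first and its treated libraries with the second. No kinesin was called in recovered reads, beside 0.0692% of all genes (0.0138% higher and 0.0554% lower in treated mutants), and 9 of 35 had an unadjusted p under 0.05, beside 19.2%. Kif13b had 14.7, 23.6 and 25.4 RPM under UNC0642 and 26.9, 40.4 and 35.2 in wild type, without overlap, a log2 difference of -0.68 (SE 0.19, adjusted p = 0.136). Kif4 had 0.736, 0.737 and 1.64 under UNC0642 against 2.04, 2.42 and 2.04 in wild type, a log2 difference of -1.13 (SE 0.36, adjusted p = 0.156). Kif1b differed by -0.25 (SE 0.09, adjusted p = 0.189). UNC0642 libraries lay wholly below wild type for 7 kinesins (Kif1b, Kif4, Kif5a, Kif5c, Kif6, Kif13b and Kif23, beside 8.62% of genes) and wholly above for Kifc3 (beside 8.7%).

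Without UNC0642 replicate 3, this comparison called 9 kinesins, beside 20.5% of all genes. Kif1a, Kif1b, Kif4, Kif5b, Kif5c, Kif13a, Kif13b and Kif20a were then lower in treated mutants, beside 10.8% of all genes. Kif1bp, which is not a motor, was higher, beside 9.7%. The log2 differences ranged from -1.51 for Kif4 and -0.82 for Kif13b to 0.31 for Kif1bp, with adjusted p between 0.00387 for Kif1b and 0.0458 for Kif1bp. Each of these genes has 2 treated libraries behind it in that fit. With all 9 libraries and the division as a term, no kinesin was called, beside 0.0346% of genes, and Kif13b differed by -0.42 (adjusted p = 0.999).

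The deposited values gave no call, and differences of another size. In limma with an intensity trend on log2(value + 0.5), a scale that understates changes of low genes, 0 of 35 kinesins and 0% of all genes were called in each of the 3 comparisons, while 3 kinesins had an unadjusted p under 0.05 between UNC0642-treated mutants and wild type, beside 8.57% of genes, and 0 did between saline mutants and wild type, beside 0.132%. Kif13b shows what the adjustment did: its deposited values were 19.4, 18.4 and 19.7 under UNC0642, 20.97, 26.9 and 25.8 in saline mutants and 20.9, 31.2 and 27.3 in wild type. Saline mutants and wild type overlap for Kif13b on this scale, with a log2 difference of -0.10, where the recovered reads had -0.85. Between UNC0642-treated and saline mutants Kif13b even had the opposite sign, at -0.34 in deposited values and 0.17 in recovered reads. The deposited differences of smallest p in that comparison were -0.34 for Kif13b, -0.31 for Kif20a and -0.45 for Kif23 (adjusted p = 1 for each). Between saline mutants and wild type they were -0.09 for Kif2a, -0.28 for Kif6 and 0.15 for Kif7 (adjusted p = 1 for each). Against wild type, treated mutants differed by -0.44 for Kif13b, -0.59 for Kif4 and -0.51 for Kif23 (adjusted p = 0.576, 0.576 and 0.58).

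Partners of the kinesins behaved unevenly between saline mutants and wild type, in a comparison where 5.54% of all genes were called higher, 6.9% lower and 12.4% in either direction. None of 24 kinesin light chains and cargo adaptors was called; Klc1, a kinesin-1 light chain, differed by 0.29 (SE 0.11, adjusted p = 0.088). Of 25 genes of dynein and dynactin, the minus-end motor complex that works against kinesins, 5 rose and 2 fell: the dynactin subunits Dctn6 and Dctn3 rose by 0.42 and 0.45 on the log2 scale (adjusted p = 0.022 and 0.042), and the adaptor Hook3 and the heavy chain Dync1h1 fell by 0.59 and 0.38 (adjusted p = 0.028 and 0.036). Of 14 tubulins, the track itself, 6 rose and none fell, among them Tuba1b by 0.91 (adjusted p = 0.017) and Tubb2a by 0.73 (adjusted p = 0.018), although reads of near-identical tubulin genes may be split between copies. Relative to its level Tuba1c differed more than these and was scattered among mutant libraries. It had 19, 329 and 280 reads under UNC0642, 47, 336 and 380 in saline mutants and 4, 2 and 2 in wild type. Of 29 microtubule-associated proteins and tubulin modifiers, 3 rose, including Stmn4 by 0.48 (adjusted p = 0.019), and 2 fell, Map2 by 0.59 (adjusted p = 0.037) and Map1b by 0.40 (adjusted p = 0.04). With the division as a term none of these calls remained, and no member of the 4 lists was called between UNC0642-treated and saline mutants.

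Longer kinesin transcripts had the lower differences between saline mutants and wild type. Across the 22 kinesins of at least 100 reads on average, the log2 difference correlated with log2 exon length at Pearson r = -0.44 and Spearman rho = -0.44, and across all 35 at r = -0.27 and rho = -0.36, as a description over genes that share the same libraries. Kifc2, the called gene that rose, has 3932 bases of exon and Kif13b, the one that fell most, 13017. Whether length had a part in the result was not tested.

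Marker lists of cell types and RNA classes were set beside these differences, in the same recovered reads and against the same 5.54% of genes called higher and 6.9% called lower in saline mutants. The 7 nuclear-retained RNAs were all lower in sign, 4 of them called, with a median of -0.62 and a sum of 5776 to 6439 RPM in saline mutants, against 6777 to 9695 in wild type. All 10 oligodendrocyte markers were negative, 2 of them called, with a median of -0.72 and a sum of 1551 to 3574 in saline mutants against 3087 to 5019 in wild type. All 7 oligodendrocyte precursor markers were negative, 1 of them called, at 302.3 to 360.8 in saline mutants and 356.3 to 507.1 in wild type. Astrocyte markers were negative in 6 of 8 with none called, and their sum of 4749 to 5155 in saline mutants lay wholly below that of 5607 to 7255 in wild type. The same held for endothelial and mural markers, 6 of 8 negative and 2 called, at 159.8 to 196.6 in saline mutants and 214.5 to 263.3 in wild type. Microglial markers were negative in 6 of 8 with none called, and the 8 markers of meningeal fibroblasts were all positive with none called. Neuronal markers summed to 12940 to 13310 RPM in saline mutants and 11390 to 13290 in wild type, with overlap. Sums also overlapped for deep-layer neurons (467.9 to 518.3 against 417.3 to 560.4) and upper-layer neurons (546.1 to 609.8 against 526.6 to 586.9). The same was true of striatal neurons (187.9 to 194.2 against 187.9 to 211.2). Beside the mitotic kinesins, whose sum was 23.2 to 25.3 in saline mutants and 26.1 to 33.3 in wild type, 9 of 10 measured dividing-cell markers were negative and 1 (Aurka) positive, with none called, and their sum was 20.7 to 23.4 in saline mutants and 27.5 to 34.4 in wild type; 3 further markers (Cdk1, Ccnb1 and Aurkb) were not analysed here. Kif20a, which shares exon sequence with Cdc23 on the other strand, was the largest part of the mitotic sum. It held 11.6 to 12.7 RPM of it in saline mutants and 11.6 to 16.2 in wild type, with overlap. The part of the listed cells and RNAs in the kinesin differences was not tested. For the cilia kinesins, 4 of 9 ependymal markers were measured, and they summed to 12.6 to 13.5 RPM in saline mutants and 12.8 to 17 in wild type.

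**Figure D5:**
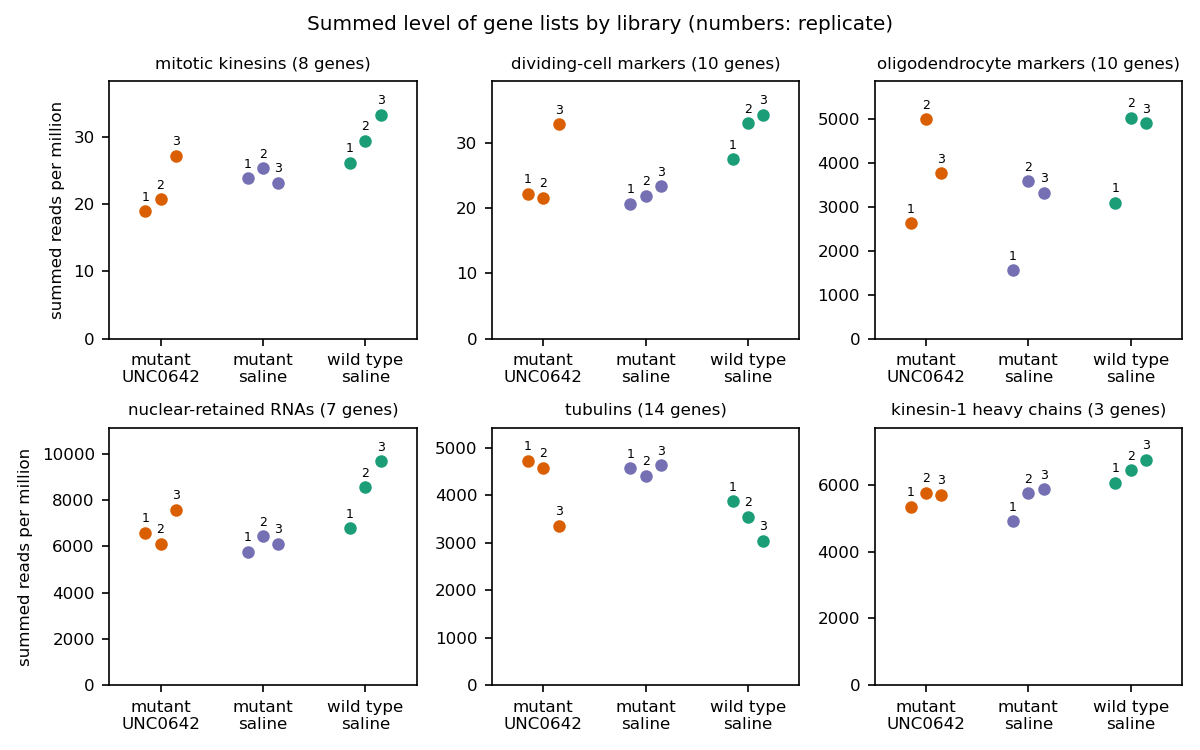
Summed RPM of recovered reads of 6 gene lists in each library, with axes from 0 and points numbered by replicate. Mitotic kinesins, dividing-cell markers, nuclear-retained RNAs and kinesin-1 heavy chains lie lower in saline mutants than in wild type without overlap, tubulins lie higher, and oligodendrocyte markers overlap. UNC0642 replicate 3 lies apart from replicates 1 and 2 in the mitotic, dividing-cell, nuclear-retained and tubulin panels. The largest part of the mitotic sum is Kif20a, whose own saline mutant and wild-type libraries overlap.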

How the data were processed

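RNA was extracted with Trizol and, after depletion of ribosomal RNA, made into stranded libraries, per the labels' protocols. The tools named in the submitters' processing notes are cutadapt, TopHat2 and HTSeq, with mm9 as the build; no version or strand setting is given in the sources used here. The authors deposited 1 signal value per gene and library under the name CPM; none is 0, and library sums run from 975390 to 1028773.

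Of 255 divisions of the libraries into 2 sets, 1 gave equal mean log2 values for every gene; the next best differed by up to 0.87. To recover reads, the shift between these sets was sought, gene by gene, that makes all 9 values whole once a prior (3.0 reads on average) is subtracted. With a tolerance of 0.02 reads, 14444 of 14444 genes had a single solution. The deposited values are not counts, so count models (edgeR, DESeq2) were not used. limma 3.58.1 (R 4.3.3) was run with an intensity trend on log2(deposited value + 0.5), and as voom on the recovered reads with median-of-ratios factors. Both used all 9 libraries and 14444 genes, the group as the only term, Benjamini-Hochberg adjustment and a threshold of 0.05, and were tested on simulated data, as was the recovery. Intervals are 95% limma intervals. With 3 libraries against 3, an exact two-sided permutation test cannot go below 0.1.

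Members, gene lists and tests were chosen with earlier results of these data known. Values per library were given for genes called, for the 3 of smallest p in each comparison and fit, and for the 8 of highest level per length; those of Kif3b, Kif9, Kif17, Kif18a, Kif21b and Kifc3 were added after their values were seen. Up to 4 partners of smallest p per list could be named. Exon lengths and overlaps came from GENCODE M21 (GRCm38) by symbol. Alternatives were pseudocounts of 0.1 and 1, rescaling by median-of-ratios or totals, filters on low values or reads, only the 2 groups compared, the division as a term, a replicate block, the 5 mutant libraries on the same side, and leaving out each library. The filter on values kept 14425 genes. The filter on reads kept all 14444 and so repeated the main fit.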

Additional observations from a re-analysis of the deposited data

How the results depend on the processing

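Depth limited 13 kinesins under 100 reads on average, and 3 libraries a group limited the rest. Among refits of 19 single-gene log2 differences, 251 kept their direction and side of the threshold under the alternatives, 22 lost the call, 4 gained it and 1 reversed. Only 4 of the 19 were called in the main fit, so only these could lose a call. Many of the 251 were uncalled genes that stayed uncalled, and they include the filter on reads, which removed no gene. The reversal was that of Kif6 between saline mutants and wild type in deposited values. It was 0.080 without saline mutant replicate 1 and otherwise as low as -0.474 with 1 library left out. In recovered reads between saline mutants and wild type, 1797 genes were called, 0 with the division as a term and 3160 with only the 2 groups compared; kinesins called were 4, and 0 with the division. Between UNC0642-treated mutants and wild type, 10 genes were called, 5 with the division, 2 with only the 2 groups and 50 with the replicate block, which called 1 kinesin (Kif13b, -0.69, adjusted p = 0.043, limma voom). In deposited values between saline mutants and wild type, only the 2 groups gave 5 genes. The cause of these shifts was not tested.

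Leaving out 1 library at a time gave 14 to 3588 genes between saline mutants and wild type in recovered reads, the lowest without wild-type replicate 2 and the highest without UNC0642 replicate 3, and 0 to 7 kinesins. Between UNC0642-treated mutants and wild type it gave 1 to 2959 genes and 0 to 9 kinesins, the highest without UNC0642 replicate 3. In deposited values that comparison gave 0 to 4 genes, and the other deposited comparisons, and UNC0642-treated against saline mutants in recovered reads, gave 0 each time. Whether the replicate numbers pair the samples could not be decided with 3 libraries a group. Correlations of deviations between same-numbered libraries ran from -0.15 to 0.30 and between others from -0.27 to 0.19. The highest were 0.30 (wild type and UNC0642, replicate 3) and 0.24 (wild type and UNC0642, replicate 1), both same-numbered. The block changed no other kinesin count by over 1.5 times (5 against 4 between saline mutants and wild type).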
